A study of Caenorhabditis elegans with 6 samples.

Results

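The astacin metalloprotease genes of Caenorhabditis elegans were examined in animals exposed to citrate-coated iron oxide nanoparticles. Members were the rows of the deposited table whose single annotated symbol is nas- followed by a number, or dpy-31, hch-1 or toh-1, which gave 39 genes among the 25478 genes with their own symbol. Each of the 39 genes had 1 row of this kind, that is 1 transcript cluster (the set of array probes that stands for 1 transcribed locus). The study exposed wild-type N2 hermaphrodites, synchronised and grown on bacteria for 48 h to the L4 stage, the last larval stage, to C-SPIONs, superparamagnetic iron oxide nanoparticles with a citrate coat, at 500 µg/mL for 24 h. This took place in the salt buffer M9 at 50% and at 20 °C. The control animals spent the same time in that buffer without particles. Total RNA of whole animals was measured on 3 C-SPION arrays and 3 control arrays. Both groups were held in buffer, and the labels name food only for the period of growth on plates. The labels state neither how many animals went into a sample nor whether cultures were separate. The p-values thus cover no more than the variation among these samples, part or all of which can be technical.

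Astacins are secreted zinc proteases, named after a digestive enzyme of crayfish. They are made as inactive precursors, and their relatives in other animals include hatching enzymes, meprins and the tolloid proteases that trim procollagens. In the worm, products of this family act on the cuticle, on the eggshell and in the pharynx. DPY-31 trims the carboxyl end of a cuticle procollagen, NAS-36 and NAS-37 are needed to shed the old cuticle at a molt, HCH-1 is the hatching enzyme, and NAS-6 and NAS-7 act in the pharynx, the feeding organ. NAS-38 acts in the sleep-like state that accompanies each molt, and NAS-39 is the member most like tolloid in its domains.

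The array signals are log2 values, so a difference of 1 is a change of 2-fold. Medians per array over all clusters lay between 4.90 and 5.16 in the C-SPION arrays and between 5.04 and 5.19 in the control arrays, and Pearson correlations between arrays, across clusters, ran from 0.934 to 0.966. The signal over background is unknown for each cluster. Mean signals of the astacin genes over the 6 arrays ran from 2.16 to 7.41, and 8 of the 39 reached a mean of 5, against 50.6% of all clusters tested. The means of the 39 genes per array lay between 4.12 and 4.25 in C-SPION arrays and between 4.17 and 4.33 in control arrays, so the groups overlapped.

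Exposed and control animals were compared to ask which astacin transcripts differ after the exposure. No astacin gene passed the test. By limma, 0 of the 39 genes had an adjusted p under 0.05, the smallest being 0.340, and the share over all 26192 clusters tested was 0%, with a smallest adjusted p of 0.201. At an unadjusted p under 0.05 there were 2 astacin genes, or 5.13%, against 12.5% of all clusters. These were nas-7, lower with C-SPIONs (background 7.30% lower), and nas-20, higher (background 5.22% higher). The median difference, C-SPION minus control, was -0.14 over the 39 genes and 0.03 over all genes, and the median size of the difference without regard to sign was 0.26 and 0.28. The difference was below 0 in 25 members and above 0 in 14, or 64.1% below 0, against 46.7% of all clusters. Leaving out 1 array, this split ran from 20 below and 19 above (without C-SPION 3) to 27 and 12 (without C-SPION 2). It was 22 and 17 after each array was centred on its median. The astacin median was -0.04 without control 2.

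Strict separation of the groups, with every C-SPION array on one side of every control array, occurred in 3 astacin genes, or 7.69%, against 18.6% of all clusters. Of these, nas-8 and nas-24 were lower (background 9.24%) and nas-15 was higher (background 9.40%). The differences of 31 members were smaller than 0.5 in size. The 95% intervals extended by 0.42 to 1.5 on either side of the difference, with a median of 0.59. In 24 members the interval lay inside -1 to 1, the bounds of a 2-fold change in signal, and in the other 15 it reached past one of these bounds. Of the members inside, only nas-11, dpy-31 and nas-36 had a mean signal of at least 5. Small changes near background are compressed, and the signal over background is unknown. For the dimmer members a narrow interval thus does not exclude a 2-fold change of the transcript.

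**Figure D1:**
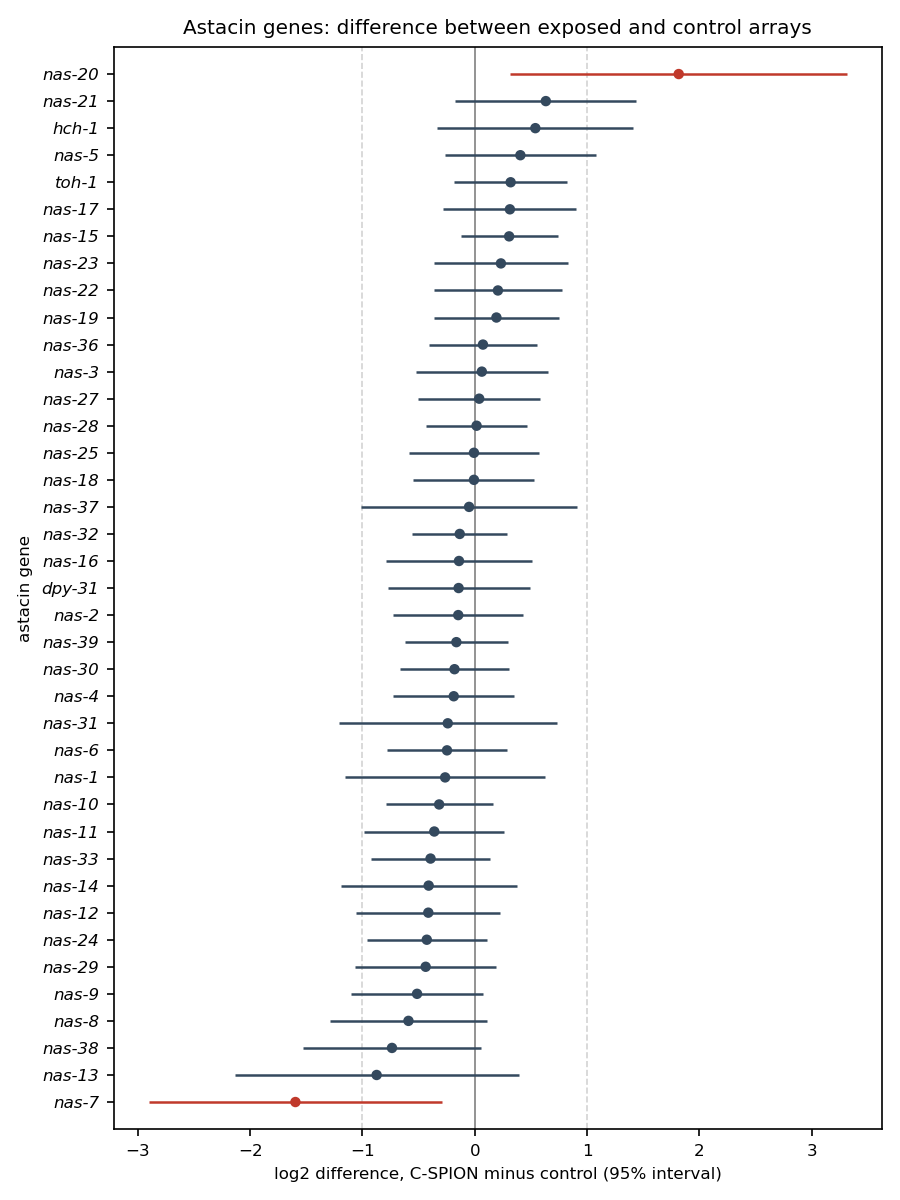
Log2 difference, C-SPION minus control, of each of the 39 astacin genes (points) with its 95% interval from the limma fit (lines), ordered from highest to lowest; dashed lines mark differences of -1 and 1. Only nas-20 and nas-7, in red, have an unadjusted p under 0.05, and their intervals are among the widest.

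The pharyngeal astacin nas-7 (cluster 18493664) had the smallest p of the family. Its log2 signal was 6.17, 4.67 and 4.68 in C-SPION arrays 1 to 3, against 5.98, 6.65 and 7.68 in control arrays 1 to 3. Thus C-SPION arrays 2 and 3 lay below every control, while C-SPION 1 lay above control 1, and the groups overlapped. The group means were 5.17 ± 0.86 with C-SPIONs and 6.77 ± 0.86 in controls (SD, n = 3 arrays each), a difference of -1.60, or 3.02-fold lower (95% interval -2.90 to -0.29, limma's adjusted p = 0.340). Without C-SPION 1 the difference was -2.10 (limma's adjusted p = 0.164), and without control 3 it was -1.14. Its unadjusted p was no longer under 0.05 without control 3, C-SPION 2 or C-SPION 3. The second pharyngeal member, nas-6 (cluster 18547648), showed a smaller difference. It was at 4.47, 4.17 and 3.94 in C-SPION arrays, against 4.34, 4.30 and 4.68 in control arrays, a difference of -0.25 (95% interval -0.78 to 0.29, limma's adjusted p = 0.683). Whether the differences of nas-6 and nas-7 differ from each other was not tested.

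Pharyngeal genes outside the family were measured beside them. Of 16 pharynx markers, 12 were lower, 8 of them with an unadjusted p under 0.05 and 7 with groups that lay apart. Over all clusters 46.7% were lower, 7.30% were lower with such a p and 9.24% were lower with separate groups. None of the 16 was past the threshold by limma (smallest adjusted p = 0.258). The median difference of the 16 was -0.58, and their mean log2 signal lay between 6.59 and 7.04 in C-SPION arrays and between 7.32 and 7.69 in control arrays. Those with the smallest p were tnc-2 and tni-4, pharyngeal muscle troponin genes, at -1.13 and -1.04, and phat-2 and phat-5, genes of pharyngeal gland peptides, at -2.25 and -3.27. The other phat genes of the list, named after their values were seen, went in both directions. Lower were phat-1 and phat-6, at -2.10 and -0.59, and higher were phat-3 and phat-4, at 0.56 and 0.32. The gland gene phat-5 was at 8.57, 5.34 and 5.42 in C-SPION arrays, against 9.92, 10.34 and 8.88 in control arrays. C-SPION 1 was the nearest of the exposed arrays to the control mean for phat-5 and nas-7, as in 40.5% of all clusters. For phat-5 that array lay below every control, whereas for nas-7 it lay above control 1. The pharyngeal transcription factor genes pha-4 and ceh-22 were at 0.03 and 0.04 (these last were chosen after their values were seen). In whole animals fewer cells of a type and less RNA per cell cannot be told apart, and the part of the pharynx in the value of nas-7 was not tested.

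The largest difference of the family was that of nas-20 (cluster 18596208), in the opposite direction. Its log2 signal was 4.71, 6.92 and 6.88 in C-SPION arrays 1 to 3, against 3.77, 5.02 and 4.27 in control arrays 1 to 3. Again C-SPION arrays 2 and 3 stood clear of the controls and C-SPION 1 did not, lying below control 2. The means were 6.17 ± 1.26 with C-SPIONs and 4.35 ± 0.63 in controls (SD, n = 3 arrays each), a difference of 1.82, or 3.52-fold higher (95% interval 0.32 to 3.32, limma's adjusted p = 0.342). Without C-SPION 1 it was 2.55, with a limma adjusted p of 0.0719, the nearest that an astacin gene came to the threshold under any alternative tried. Without C-SPION 2 it was 1.44, and its unadjusted p was no longer under 0.05 without C-SPION 2, C-SPION 3, control 1 or control 3.

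In the RefSeq gene order of assembly WBcel235, nas-20, nas-21 and nas-22 follow each other with 0 protein-coding genes between them. Its neighbour nas-21 (cluster 18575813) was at 4.33, 3.05 and 3.86 in C-SPION arrays, against 3.23, 2.88 and 3.23 in control arrays. The arrays that stood out were C-SPION 1 and C-SPION 3, whereas nas-20 was highest on C-SPION 2 and C-SPION 3. The difference of nas-21 was 0.63 (95% interval -0.17 to 1.44, limma's adjusted p = 0.482), 0.34 without C-SPION 1 and 0.98 without C-SPION 2, where its unadjusted p was 0.00974. The next neighbour, nas-22, named for its position, was at 0.21 (95% interval -0.37 to 0.78, limma's adjusted p = 0.754). A second run of neighbours holds nas-16, nas-18, nas-17 and nas-19, with 1 protein-coding gene between nas-16 and nas-18 and 0 between the others. Their differences were -0.14, -0.01, 0.31 and 0.19 in that order, and each 95% interval included 0. Whether the probes of such neighbouring copies tell their transcripts apart was not tested.

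**Figure D2:**
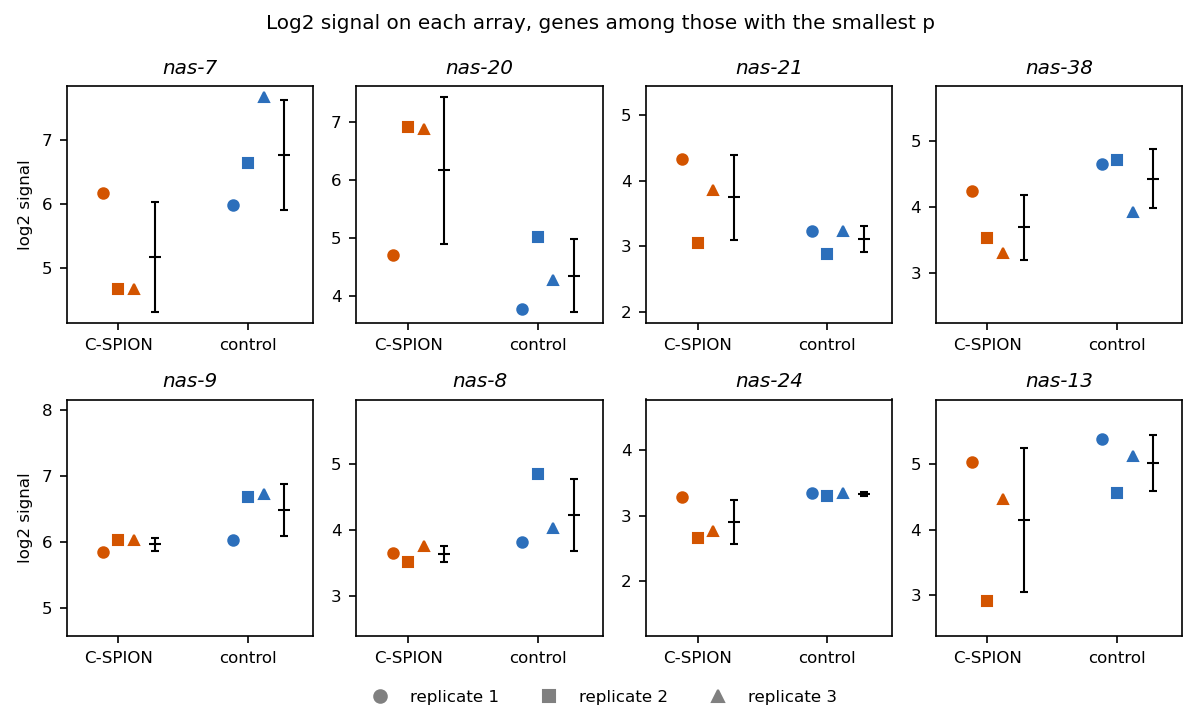
Log2 signal on each array for 8 of the 12 astacin genes with the smallest p, C-SPION arrays (orange) left of control arrays (blue); symbols mark the replicate number and bars the mean and SD of 3 arrays, with at least the same axis span in each panel. C-SPION 1 (circle) lies apart from C-SPION 2 and C-SPION 3 for nas-7 and nas-20.

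Among the genes of the cuticle and its molts, differences were small. The procollagen protease gene dpy-31 (cluster 18514997) was at 6.76, 6.73 and 6.31 in C-SPION arrays, against 6.68, 7.17 and 6.38 in control arrays, and the groups overlapped throughout. Its difference was -0.14 (95% interval -0.78 to 0.49, limma's adjusted p = 0.853), turning to 0.07 without control 2. The ecdysis gene nas-36 (cluster 18452059) was at 5.32, 5.46 and 5.25 in C-SPION arrays, against 5.27, 5.05 and 5.49 in control arrays, a difference of 0.07 (95% interval -0.41 to 0.55, limma's adjusted p = 0.908). The sign of this value turned without control 2, at -0.04. Its partner in shedding the cuticle, nas-37 (cluster 18620229), was at 6.78, 7.54 and 6.80 in C-SPION arrays, against 7.35, 7.66 and 6.26 in control arrays. Control 3 was the lowest of the 6 arrays and control 2 the highest, so the control arrays enclosed the C-SPION arrays. The difference of nas-37 was -0.05 (95% interval -1.01 to 0.91, limma's adjusted p = 0.970), and it was 0.02 after each array was centred on its median.

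The gene of the sleep-like state, nas-38 (cluster 18611996), had the third smallest p of the family. It was at 4.25, 3.53 and 3.31 in C-SPION arrays, against 4.66, 4.72 and 3.92 in control arrays. C-SPION arrays 2 and 3 lay below all controls, and C-SPION 1 lay above control 3. The difference was -0.74 (95% interval -1.53 to 0.06, limma's adjusted p = 0.423), -1.01 without C-SPION 1 and -0.54 without C-SPION 3. The hatching enzyme gene hch-1 (cluster 18625549) was higher on average. Its signal was at 7.43, 7.72 and 7.89 in C-SPION arrays, against 6.55, 6.93 and 7.94 in control arrays, so that control 3 exceeded every exposed array. Its difference was 0.54 (95% interval -0.33 to 1.41, limma's adjusted p = 0.575), 0.94 without control 3 and 0.25 without control 1.

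These genes belong to the members whose proteins carry a thrombospondin-type repeat, which are nas-33, hch-1, dpy-31, nas-36, nas-37 and nas-38. Over the 6 genes the median difference was -0.10, with 4 lower and 2 higher. An unadjusted p under 0.05 was found in 0 of them, against 12.5% of all clusters. The last of them, nas-33 (cluster 18628725), was at 3.63, 3.34 and 3.48 in C-SPION arrays, against 4.16, 3.57 and 3.90 in control arrays. Only C-SPION 1 reached into the control range, and the difference was -0.39 (95% interval -0.92 to 0.14, limma's adjusted p = 0.506). The tolloid-like gene nas-39 (cluster 18609752) was at 4.13, 4.10 and 4.09 in C-SPION arrays, against 4.33, 4.05 and 4.43 in control arrays. Its exposed arrays lay close together within the range of the controls, and its difference was -0.16 (95% interval -0.62 to 0.29, limma's adjusted p = 0.757). The related gene toh-1 (cluster 18528112) was at 5.26, 4.98 and 4.70 in C-SPION arrays, against 4.70, 4.68 and 4.60 in control arrays. C-SPION 3 equalled the highest control, and the difference was 0.32 (95% interval -0.18 to 0.82, limma's adjusted p = 0.566).

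**Figure D3:**
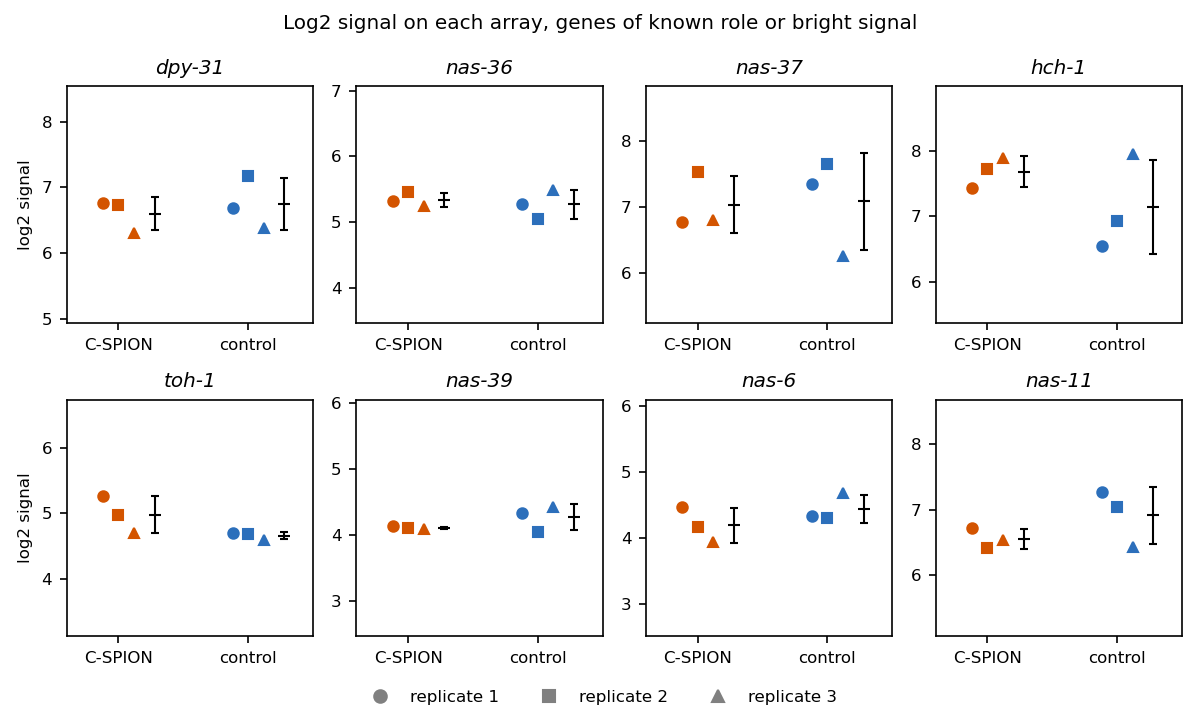
Log2 signal on each array for 7 astacin genes named whatever their values and for nas-11, one of the 5 with the highest mean signal, C-SPION arrays (orange) left of control arrays (blue); symbols mark the replicate number and bars the mean and SD of 3 arrays. The groups overlap in 7 of the panels, and for toh-1 they meet where C-SPION 3 equals control 1.

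The remaining members with a small p were mostly genes without a role given here. The groups of nas-8 (cluster 18534767) lay apart at 3.65, 3.52 and 3.76 in C-SPION arrays, against 3.82, 4.85 and 4.03 in control arrays. Control 2 was the highest by far, and the difference of -0.59 (95% interval -1.29 to 0.11, limma's adjusted p = 0.456) was -0.28 without it. For nas-24 (cluster 18567600) the C-SPION arrays stood at 3.28, 2.66 and 2.77, against 3.34, 3.30 and 3.35 in control arrays. The controls had an SD of 0.026, C-SPION 1 lay just below them, and the difference was -0.43 (95% interval -0.96 to 0.11, limma's adjusted p = 0.475). The higher gene with separate groups, nas-15 (cluster 18615118), was at 3.35, 3.27 and 3.37 in C-SPION arrays, against 2.95, 2.96 and 3.16 in control arrays. Its difference of 0.31 (95% interval -0.12 to 0.74, limma's adjusted p = 0.522) varied between 0.27 and 0.38 when 1 array was left out, a narrow range for this family.

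A pair of brighter members was lower by about the spread of their controls. The signal of nas-9 (cluster 18584927) was 5.85, 6.02 and 6.02 in C-SPION arrays, against 6.02, 6.68 and 6.73 in control arrays. C-SPION 2 and C-SPION 3 equalled control 1, and the difference was -0.51 (95% interval -1.10 to 0.07, limma's adjusted p = 0.441). That of nas-11 (cluster 18613569) was 6.72, 6.41 and 6.53 in C-SPION arrays, against 7.27, 7.04 and 6.43 in control arrays, a difference of -0.36 (95% interval -0.98 to 0.26, limma's adjusted p = 0.604). Control 3 stood within the exposed range for nas-11, whose difference was -0.60 without control 3 and -0.18 without control 1. The widest scatter among exposed arrays after nas-20 was that of nas-13 (cluster 18625497), at 5.03, 2.92 and 4.47, against 5.37, 4.55 and 5.12 in control arrays. Its difference of -0.87 (95% interval -2.14 to 0.39, limma's adjusted p = 0.533) was -0.26 without C-SPION 2. The last 2 genes of the 12 with the smallest p were nas-29 at -0.44 and nas-10 at -0.32, with limma adjusted p of 0.531 and 0.550.

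The other 19 members had differences from -0.41 to 0.41, 11 of them lower and 8 higher. Their values on single arrays lay between 1.85 and 4.93, and their smallest limma adjusted p was 0.560. Scatter within groups was similar to that of the whole table. The median SD over 3 arrays was 0.25 for the astacin genes in C-SPION arrays and 0.29 in control arrays, against 0.30 in both groups over all clusters. An SD over 0.5 was found in 5 members in the C-SPION arrays and in 8 members in the control arrays. Of the 3 exposed arrays, C-SPION 1 was the nearest to the control mean in 17 of 39 members, or 43.6%, against 40.5% of all clusters.

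**Figure D4:**
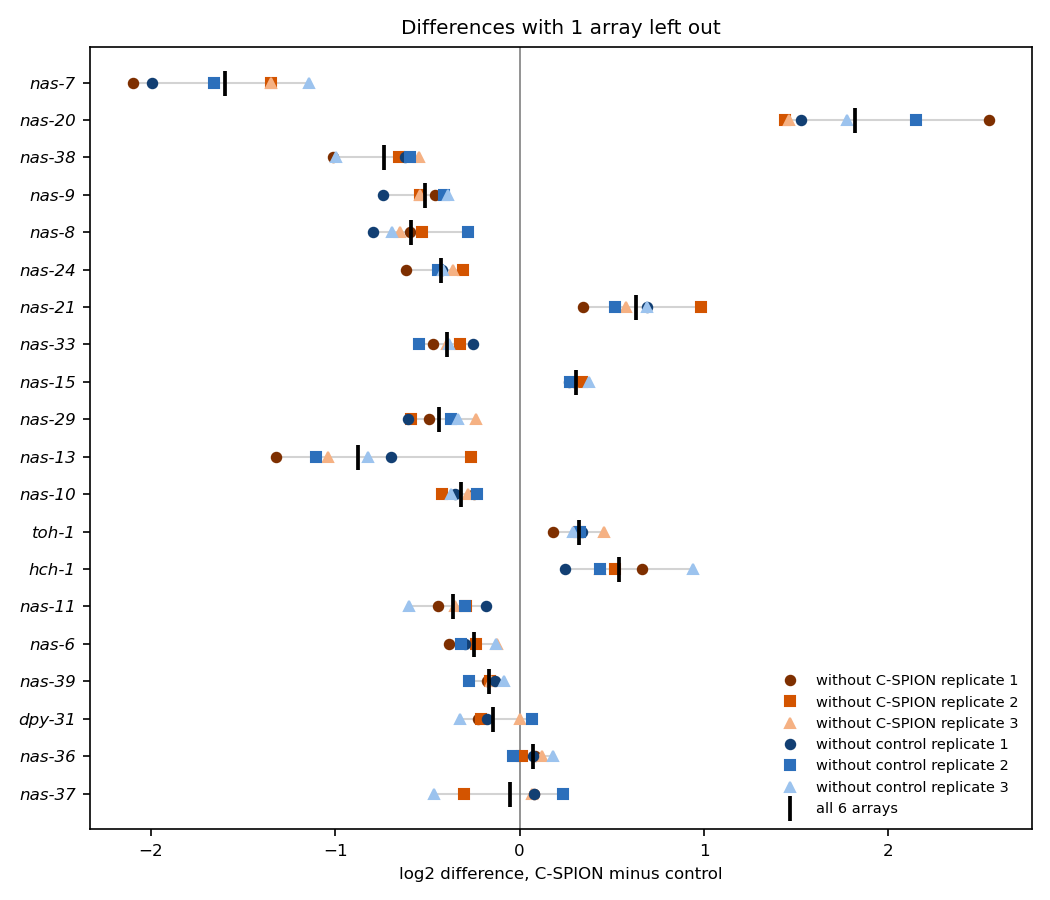
Log2 difference, C-SPION minus control, of the 20 named astacin genes with all 6 arrays (black bar) and with each array left out in turn (symbols), ordered by p. The value of nas-20 is 2.55 without C-SPION replicate 1 and 1.44 without C-SPION replicate 2, and values for dpy-31, nas-36 and nas-37 lie on both sides of 0.

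Genes that work with the cuticle astacins were described from lists. Of 26 genes of molting and ecdysis, 14 were lower and 12 higher, 2 and 3 of them with an unadjusted p under 0.05, and the median difference was -0.04. Over all clusters the shares at that p were 7.30% lower and 5.22% higher. The lower count is thus near the background, and the higher count lies above it, a difference that was not tested. Those with the smallest p went in both directions. The kinase gene nekl-2 and the ankyrin repeat gene mlt-3, both needed for molting, were at -0.86 and -0.62, and fbn-1, which encodes a fibrillin-like matrix protein, and sym-1 were at 0.82 and 0.75, with limma adjusted p from 0.281 to 0.333. Of 11 genes for collagen-processing enzymes, 5 were lower and 6 higher, and 1 had an unadjusted p under 0.05. This was doxa-1, a maturation factor of the dual oxidase that cross-links cuticle collagen, at -1.19 (95% interval -1.93 to -0.45, limma's adjusted p = 0.295), followed by the oxidase gene bli-3 at -0.41.

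Of the 19 measured cuticle collagen genes of the dpy, sqt, rol, lon and bli classes, 17 were higher and 2 lower. The share lower over all clusters was 46.7%. Only 6 of the 19 had a mean signal of at least 5. The median difference of the 19 was 0.19, and 1 was higher at an unadjusted p under 0.05, against 5.22% of all clusters. This gene was bli-6, at 1.10 (95% interval 0.59 to 1.61, limma's adjusted p = 0.258). Its mean signal was low, at 3.97 in C-SPION arrays and 2.87 in control arrays. Next were sqt-1, rol-8 and dpy-2 at 0.54, 0.40 and 0.37, of which only dpy-2 had a mean signal of at least 5. The collagen gene sqt-3, whose product DPY-31 trims, was singled out after its value was seen. It was at 11.01, 10.36 and 10.09 in C-SPION arrays, against 10.42, 10.96 and 11.52 in control arrays, with overlapping groups and a difference of -0.48 (95% interval -1.33 to 0.37, limma's adjusted p = 0.610). Of 17 genes for other matrix metalloproteases and their inhibitors, 11 were lower and 6 higher, with a median difference of -0.09. At an unadjusted p under 0.05 there was 1 lower gene (7.30% of all clusters) and 1 higher gene (5.22%). The first was cri-2, a gene of the metalloprotease inhibitor family TIMP, at -0.88 (95% interval -1.33 to -0.42, limma's adjusted p = 0.262), and the second unc-71, an ADAM family gene, at 0.55. The matrix metalloprotease gene zmp-3 and the ADAMTS gene gon-1, which shapes the gonad, were at -0.61 and -0.66.

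Markers of other tissues differed between the groups, and their part in the values of the astacin genes was not tested. All 12 germ line markers were higher, with a median of 0.76 and a mean log2 signal of 8.13 to 8.43 in C-SPION arrays and 7.10 to 7.86 in control arrays. All 9 neuron markers were lower, with a median of -1.17 and a mean signal of 6.42 to 7.13 in C-SPION arrays and 7.53 to 8.24 in control arrays. Of 7 body wall muscle markers, 6 were lower, with a median of -0.49 and a mean signal of 8.07 to 8.44 in C-SPION arrays and 8.52 to 9.10 in control arrays. Over all clusters 46.7% were lower. At an unadjusted p under 0.05, 7 germ line markers were higher (5.22% of all clusters), and 7 neuron markers and 1 muscle marker were lower (7.30%). Groups lay apart in 11 germ line markers (9.40% higher), 7 neuron and 3 muscle markers (9.24% lower). None of these markers was past the threshold by limma. Epidermis and seam markers, of which 8 of 10 were measured, had a median of 0.24, with 3 lower and 5 higher. Their mean signal was 6.16 to 6.50 in C-SPION arrays and 6.36 to 6.47 in control arrays, so these means overlapped for the tissue that makes the cuticle. At an unadjusted p under 0.05, grd-10 was lower at -1.76 and lin-26 higher at 0.62 (7.30% and 5.22% of all clusters). The markers dpy-7, rol-6 and bli-1 are also among the collagen genes above. Intestine markers, of which 8 of 9 were measured, had a median of 0.08, and their mean signals overlapped between the groups. Single markers went in both directions, with 3 lower and 5 higher. Lower at an unadjusted p under 0.05 were 2 of them, ifb-2 at -0.82 and act-5 at -1.01, against 7.30% of all clusters. The largest difference upwards was that of vit-6, at 0.84. The lowest mean signal of a germ line, neuron, muscle or intestine marker was above 5, and that of an epidermis marker was 2.93.

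**Figure D5:**
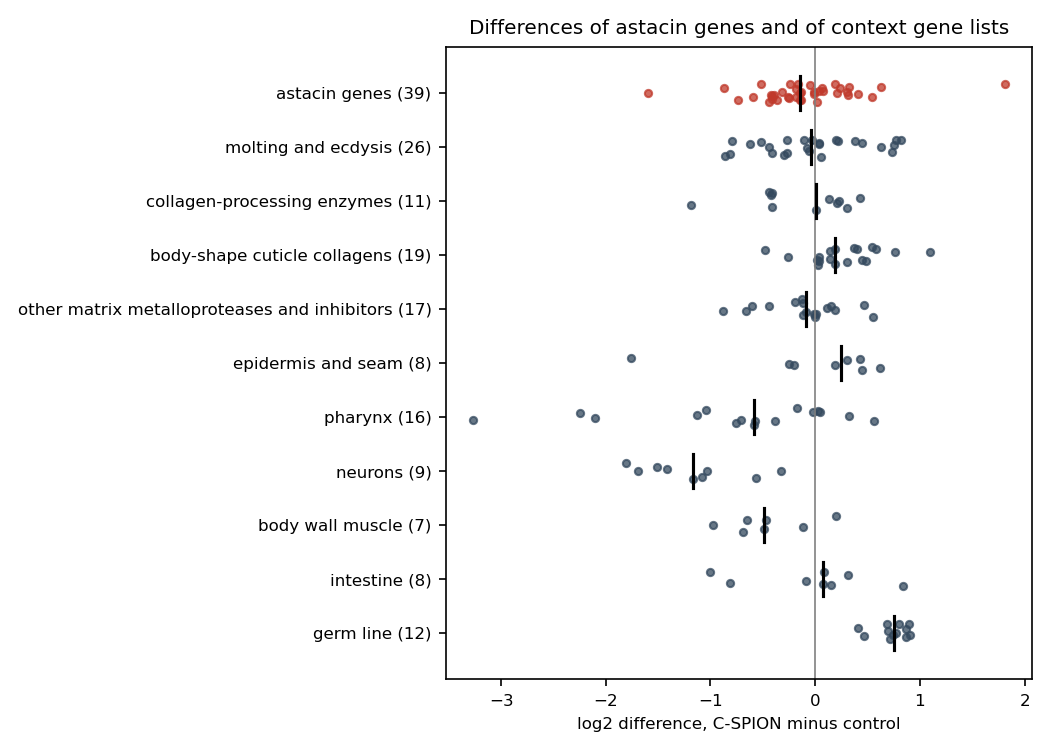
Log2 difference, C-SPION minus control, of each gene (points, spread vertically for sight) for the astacin genes in red and for context lists, with the number of genes in parentheses and the median as a black bar. The astacin median of -0.14 lies near 0, while the medians are -0.58 for pharynx, -1.17 for neuron and 0.76 for germ line markers.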

How the data were processed

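Per the submitters' processing notes, the authors made the values with RMA in Affymetrix Expression Console; the genome build, settings and versions were not given in the sources used for this work. The deposited values are log2 signals with 1 column per array. RMA subtracts background, brings arrays to a common scale and combines the probes of a cluster. A value is thus relative to everything else on its array, and small changes near background are compressed. The number of arrays limits the precision.

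The platform annotation names 25546 of 29317 clusters with 1 symbol and 646 with several; 3125 are unnamed here and were not tested. Gene identifiers tied 25495 of the clusters with 1 symbol to current symbols in the RefSeq table of WBcel235, all 39 astacin genes among them; no coordinates or sequences are printed. The remaining 26192 clusters were fitted with limma 3.58.1 in R 4.3.3 (group as the only term, prior degrees of freedom 3.11, two-sided, Benjamini-Hochberg adjustment over all clusters, threshold 0.05), with 95% intervals from that fit. Of several rows of a gene the one with the highest mean was used.

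The astacin genes named are the 12 with the smallest p, 9 named whatever their values, and the 5 with the highest mean signal; context lists give up to 4 genes by smallest p. Members and lists were chosen with earlier results of these data known, and the grouping by thrombospondin repeat was added later, so lists are described by counts and medians only. The fit was tested on simulated data with known changes. Replicate numbers were taken from the titles, since the third control's source name repeats the second's. Deviations from group means correlated at 0.22, 0.20 and 0.01 between same-numbered arrays, and at -0.27 to 0.06 between differently numbered ones. The values 0.22 and 0.20 thus lie above those of every other pair. Whether equal numbers mark paired samples is not known. The main fit leaves pairing out, and a replicate block is given among the alternatives. The alternatives tried were other scalings, a replicate block, omission of single arrays, a filter on dim clusters, other variance and weighting options, all clusters, and the mean of a gene's rows.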

Additional observations from a re-analysis of the deposited data

How the results depend on the processing

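No astacin gene passed an adjusted p of 0.05 by limma under any of the 14 alternatives. Of the 20 named genes, 17 kept their sign in every alternative that measured them. The filter on dim clusters dropped 12 of the 20, which have 13. That filter, the other variance option, all clusters and the mean of a gene's rows keep each member's difference as in the main fit. The replicate block does so too. A sign could thus change only with other scalings, array weights or an array left out. The 8 sign changes were at small differences: dpy-31 at 0.07 without control 2 and 0.0017 without C-SPION 3, nas-36 at -0.037 without control 2, and nas-37 at 0.023 with median centring, 0.08 without control 1, 0.24 without control 2, 0.08 without C-SPION 1 and 0.07 without C-SPION 3. Leaving out 1 array, dpy-31 ran from -0.325 to 0.07, nas-36 from -0.037 to 0.18 and nas-37 from -0.465 to 0.24. The count of astacin genes at an unadjusted p under 0.05 was 5 with array weights (3 lower, 2 higher; 19.5% of all clusters) and ran from 0 to 5 when 1 array was left out (lower from 0 to 4, higher from 0 to 2). It was 0 without C-SPION 3 (7.59% of all clusters), and 5, or 12.8%, without C-SPION 1 (15.8%) or without control 3 (12%). With the replicate block it was 4 (3 lower), against 13% of all clusters. These 4 were nas-20, nas-38, nas-13 and nas-7, with limma's unadjusted p of 0.0033, 0.028, 0.035 and 0.045. The block changed no call after adjustment, and the numbers are shared but the arrays are not known to be paired. After median centring 1 was lower and 2 were higher (5.19% and 5.77% of all clusters). With only clusters of mean signal at least 5, 8 members remained. Of these, nas-7 and nas-20, or 25%, had such a p, against 18.3% of the clusters kept. The gene nas-20 passed this filter through its C-SPION arrays, with a mean of 6.17 there and 4.35 in control arrays. The share of so few members is thus not read against that of the clusters kept. Leaving out 1 array, the median of the astacin genes ran from -0.16 to -0.037, and the number of clusters past the threshold from 0 to 63 (63 without C-SPION 1). Medians of context lists that moved more than the spread between arrays were collagen-processing enzymes at -0.20 with the filter on dim clusters (-0.18 to 0.052 leaving out 1 array), other metalloproteases at -0.013 with median centring (-0.085 to 0.012), intestine at 0.0069 with quantile normalisation and 0.15 with median centring (-0.00083 to 0.12), epidermis at 0.064 to 0.31 leaving out 1 array, and the thrombospondin-repeat astacins at -0.32 with array weights (-0.35 to 0.036). The cause of these moves was not tested. Of 200 simulated changed clusters among 26192, the fit recovered 0% at a true change of 2-fold, 56.5% at 4-fold and 83% at 8-fold; at this spread a 2-fold change of a single gene would rarely pass.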

Other observations

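One further row of the table carries the symbols nas-2 and Y19D10A.6 together and was therefore no member. It was at 2.62, 3.13 and 2.96 in C-SPION arrays, against 2.88, 2.77 and 2.56 in control arrays, a difference of 0.17 (95% interval -0.35 to 0.68, limma's adjusted p = 0.781). The row of nas-2 alone was at -0.15 (95% interval -0.73 to 0.43).

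A pair of molting genes, picked after their values were seen, shared part of the array pattern of nas-7, in that C-SPION 2 and C-SPION 3 lay below every control and C-SPION 1 did not; C-SPION 1 lay above every control in both genes, and between controls for nas-7. The molting gene mlt-10 was at 7.66, 5.85 and 5.97 in C-SPION arrays, against 7.23, 7.32 and 7.36 in control arrays, a difference of -0.81 (95% interval -1.92 to 0.30, limma's adjusted p = 0.515). The molting gene mlt-9 was at 6.95, 5.18 and 5.16 in C-SPION arrays, against 6.49, 6.42 and 6.76 in control arrays, a difference of -0.79. Another pattern was that of hch-1, in which control 3 stood with the exposed arrays. The cuticle matrix gene noah-1 was at 10.47, 10.53 and 10.40 in C-SPION arrays, against 9.28, 9.79 and 10.43 in control arrays. Likewise noah-2 was at 9.34, 9.28 and 9.15 in C-SPION arrays, against 7.98, 8.24 and 9.24 in control arrays. These values are a description, and no cause was tested.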
